A study of Sus scrofa with 35 samples.

Results

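The glucocorticoid receptor gene NR3C1 and 8 genes that the receptor controls or depends on were followed in the whole blood of growing pigs. The members were FKBP5, TSC22D3, ZBTB16, SGK1, KLF9, DDIT4, ANXA1 and HSD11B1 beside NR3C1. A probe belonged to a member when its gene name in the scanner files was the symbol of that member, in upper or lower case. This rule found 44 of the 60305 probes of the array, and 41 of them were among the 39072 probes of the authors' table of log2 values. They covered 8 of the 9 genes, with 4 probes for NR3C1, 5 for FKBP5, 2 for SGK1, 4 for DDIT4, 1 for ZBTB16, 10 for KLF9, 9 for ANXA1 and 6 for HSD11B1. TSC22D3 had 0 probes by the rule, and 2 probes that the files describe as TSC22D3 without giving that gene name are reported apart and counted in none of the totals.

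Messenger RNA was measured on 35 one-colour arrays, 1 for each castrated male pig. The breeds were Creole (CR), Large White (LW) and the cross between them (F1). Thermoneutral (TN) pigs were kept at 24 °C and heat-stressed (HS) pigs at 30 °C by their labels or 32 °C by the protocol text, for 5 d by the protocol text, and no age is given in the labels. By the study's methods, some HS pigs were slaughtered a day earlier, and the labels do not say which. There were 5 CR pigs in TN conditions, 6 CR pigs in HS conditions, and 6 pigs in each of the F1 and LW groups. Blood was taken at slaughter. All TN pigs were slaughtered before the temperature was raised, so that climate and day of slaughter cannot be told apart. The study's methods also place littermates in the experiment and several pigs of a breed in a pen, and neither is given in the labels. Each p-value therefore treats the pigs as independent and measures the spread between single pigs. By these methods the pigs of a pen were slaughtered in the same climate. The p-values between climates may thus be too small, for the members and for all probes. Levels are log2 intensities after quantile normalization by the authors, and 1 unit is a doubling of signal. They are compared between pigs for the same probe and never between probes.

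The arrays lay on 5 slides, each with its own scan time. No member probe was saturated, and of the 41 probes 31 were well above background on every array. Blood is a mixture of cells, and fewer cells of a type and less RNA per cell cannot be told apart in it. Beside 16.7% lower and 22.8% higher among all named genes, the erythroid markers had 7 of 16 genes lower and 1 higher in HS pigs. Their median difference was -0.60. Their mean level ranged from 9.79 to 11.68 in F1 pigs in TN conditions and from 8.43 to 10.25 in F1 pigs in HS conditions. In the F1 breed the brightness of the arrays before quantile normalization moved with climate too. The 75th percentile of the scanner's processed intensity was 112 to 185.9 in TN pigs and 172.1 to 265.8 in HS pigs. The part of blood composition and of array brightness in the results below was not tested beyond the values given beside them.

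Cortisol crosses the cell membrane and binds the glucocorticoid receptor, which waits in the cytoplasm in a complex with heat shock protein 90 and its co-chaperones. The loaded receptor moves to the nucleus, where it switches on genes such as FKBP5 and TSC22D3 and holds down inflammatory genes. In blood, glucocorticoids are known to draw neutrophils into the circulation and to lower the number of circulating lymphocytes and eosinophils.

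Few of the member probes passed the threshold between climates. In the comparison of HS with TN over all breeds, 3 of the 41 member probes (7.32%) passed the threshold of an adjusted p of 0.05, against 34.8% of all probes of the table. Lower in HS pigs were both SGK1 probes, and higher was 1 of the 4 NR3C1 probes. The median difference of the 41 probes was -0.12 on the log2 scale, while that of all probes was 0.06. Without regard to sign the medians were 0.16 and 0.17. With 1 probe per gene they were 0.158 for the 8 measured members and 0.185 for all named genes, and the shares called were 12.5% and 39.5%. Several of the 41 probes belong to the same gene and are not independent. Each test was limma's moderated test with Benjamini-Hochberg adjustment over all 39072 probes, and the same holds for every adjusted p below unless a permutation is named.

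**Figure D1:**
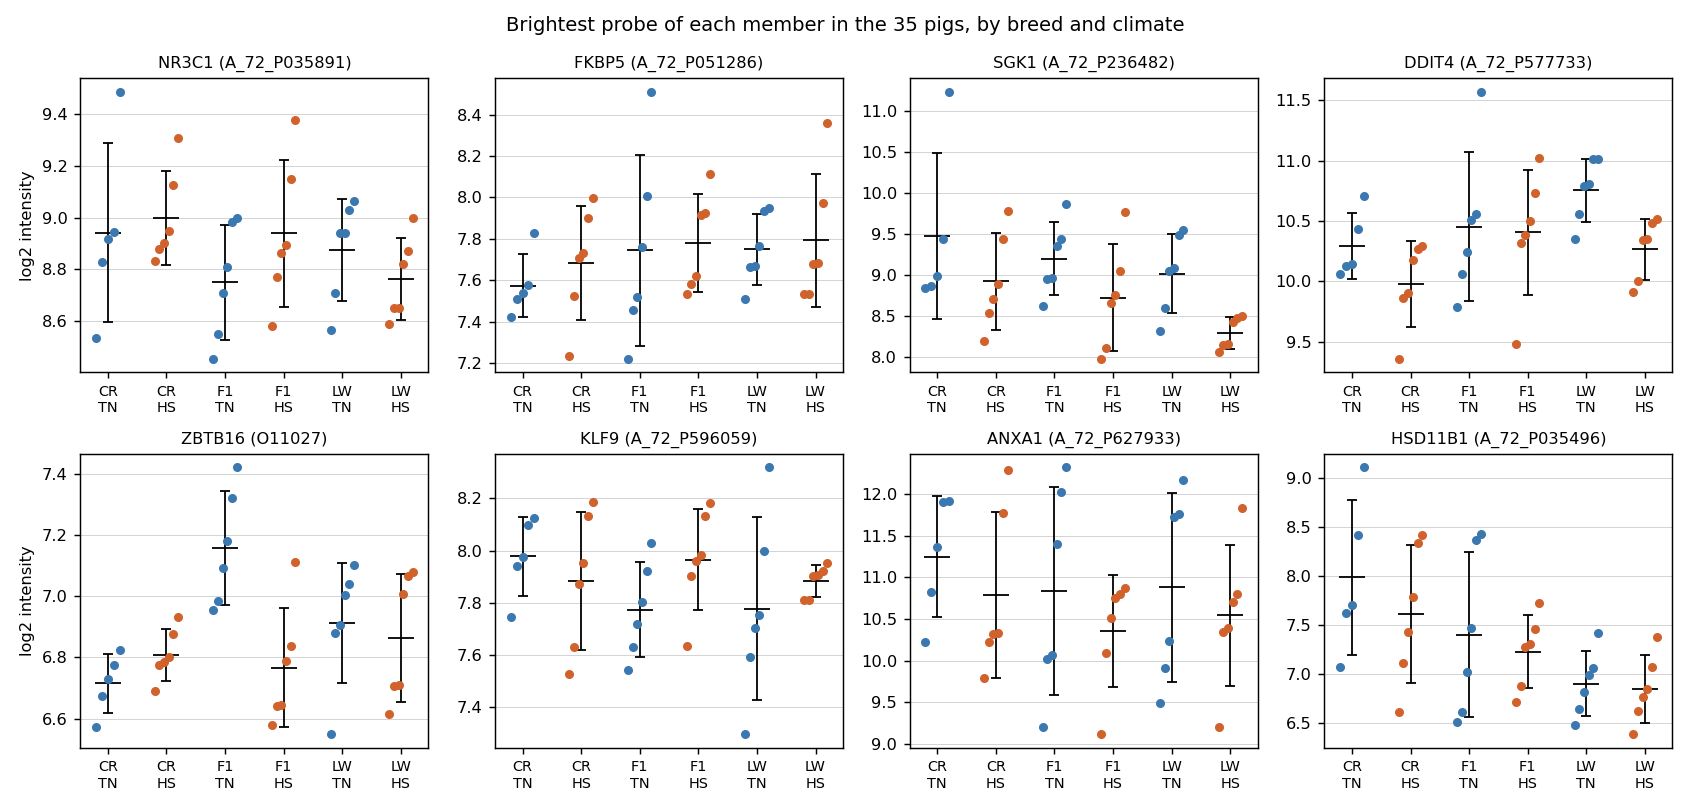
Log2 intensity of the brightest probe of each of the 8 measured members (vertical axis) in the 6 groups of breed and climate (horizontal axis), with 1 point per pig, TN in blue and HS in orange. The horizontal bar is the group mean and the whisker 1 SD. SGK1 reached 11.23 in 1 CR pig in TN conditions, and all groups next to each other in the order of their means overlapped for each of these 8 probes.

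NR3C1 encodes the receptor itself. Its brightest probe, A_72_P035891, had similar levels in the 6 groups, from a mean of 8.75 ± 0.22 (SD, n = 6) in F1 pigs in TN conditions to 8.999 ± 0.18 (SD, n = 6) in CR pigs in HS conditions. In order, CR in HS, CR in TN, F1 in HS, LW in TN, LW in HS and F1 in TN followed each other, and every pair of neighbours overlapped. Over all breeds the HS minus TN difference was 0.04 ± 0.08 (SE), with an adjusted p of 0.689. A further probe that the files only describe as the glucocorticoid receptor, A_72_P175936, differed by 0.02 (adjusted p = 0.765) and is not a member. For A_72_P035891 the 95% interval of the difference ran from -0.12 to 0.21.

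The probe A_72_P444091 of the same gene gave another picture. In CR pigs its lowest, median and highest levels were 7.92, 8.50 and 8.65 in TN conditions and 8.34, 8.59 and 8.86 in HS conditions. In F1 pigs they were 8.10, 8.44 and 8.90 in TN conditions and 8.44, 8.69 and 9.19 in HS conditions. In LW pigs they were 7.93, 8.63 and 8.67 in TN conditions and 8.45, 8.84 and 9.08 in HS conditions. The climates overlapped in each breed, and 15 of the 18 HS pigs lay above the TN mean of their breed. The level was higher in HS pigs by 0.26 ± 0.09 (SE) on the log2 scale (adjusted p = 0.0233). The difference was positive within each of the 4 slides that hold both climates and all breeds, from 0.08 to 0.54. It was 0.21 with an adjusted p of 0.0759 when the mean of the neutrophil markers was a covariate, and 0.16 with an adjusted p of 0.388 with the erythroid markers. It was 0.27 without F1, 0.29 without CR and 0.23 without LW pigs, with adjusted p-values of 0.236, 0.0505 and 0.113. The other 2 probes of the gene, A_72_P464460 and O9499, were 0.14 and 0.05 higher in HS pigs, with adjusted p-values of 0.204 and 0.630. The mean of the 4 probes was 0.12 higher (adjusted p = 0.135), so the call did not hold for the gene as a whole.

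The NR3C1 probes also disagreed from pig to pig. After the group means had been removed, A_72_P035891 and O9499 had a Pearson correlation of 0.902 over the 35 pigs, and A_72_P464460 had 0.75 and 0.8 with them. A_72_P444091 had -0.091 with A_72_P035891, 0.005 with O9499 and 0.305 with A_72_P464460. The probe that rose was thus the one whose levels ran apart from the other 3, and what transcripts each probe binds was not tested. Its sequence and that of A_72_P464460 are shown so that the disagreement can be followed up. Both are given 5′ to 3′ as in the scanner files, in lower case throughout because no base in them was singled out.
NR3C1 A_72_P444091: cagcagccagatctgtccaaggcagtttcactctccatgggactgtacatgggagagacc
NR3C1 A_72_P464460: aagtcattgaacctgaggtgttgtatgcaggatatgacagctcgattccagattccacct

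SGK1, a serine/threonine kinase that regulates ion channels and transporters and is a rapid target of the receptor, was lower in HS pigs. For the probe A_72_P236482 the lowest, median and highest levels of CR pigs were 8.84, 8.99 and 11.23 in TN conditions and 8.20, 8.80 and 9.78 in HS conditions. In F1 pigs they were 8.62, 9.16 and 9.87 in TN conditions and 7.98, 8.71 and 9.77 in HS conditions. In LW pigs they were 8.32, 9.07 and 9.55 in TN conditions and 8.06, 8.30 and 8.51 in HS conditions. The climates overlapped in every breed, and 16 of the 18 HS pigs lay below the TN mean of their breed. The level fell by 0.58 ± 0.19 (SE) on the log2 scale, a fold of 0.667 (adjusted p = 0.0163).

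The other SGK1 probe, O10149, fell by 0.74 ± 0.22 (SE), a fold of 0.598 (adjusted p = 0.009999), again with 16 of 18 HS pigs below the TN mean of their breed. Its levels in LW pigs ran from 7.75 to 9.42 in TN conditions and from 7.33 to 8.01 in HS conditions. Over the pigs, the SGK1 probes had a Pearson correlation of 0.860 after removal of the group means. Within the breeds, the difference of A_72_P236482 was -0.55 in CR, -0.48 in F1 and -0.72 in LW pigs, with adjusted p-values of 0.603, 0.240 and 0.565. On the 4 slides it was -0.89, -0.68, -0.78 and -0.16, and for O10149 it was -1.08, -0.45, -0.69 and -0.51.

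The highest SGK1 pig was replicate 1 of CR in TN conditions, at 11.23 for A_72_P236482 where the other 4 pigs of its group lay between 8.84 and 9.44. It was also the highest for O10149 (10.62) and for the NR3C1 probe A_72_P035891 (9.486). Its array had the highest 75th percentile of processed intensity of all (328.8), and the part of array brightness was not tested. Without this pig the differences of the SGK1 probes were -0.46 and -0.62, with adjusted p-values of 0.0230 and 0.0151. Without the F1 pigs the differences were -0.64 and -0.87 and no longer passed the threshold (adjusted p = 0.222 and 0.189). Without the LW pigs they were -0.51 and -0.58 and did not pass it either (adjusted p = 0.132 and 0.131). Fewer pigs entered both of these fits. Without the F1 pigs the calls over the whole table were lost as well, and the reason was not tested. With the erythroid markers as a covariate the differences were larger, -0.72 and -0.90, and the adjusted p-values were 0.133 and 0.129.

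**Figure D2:**
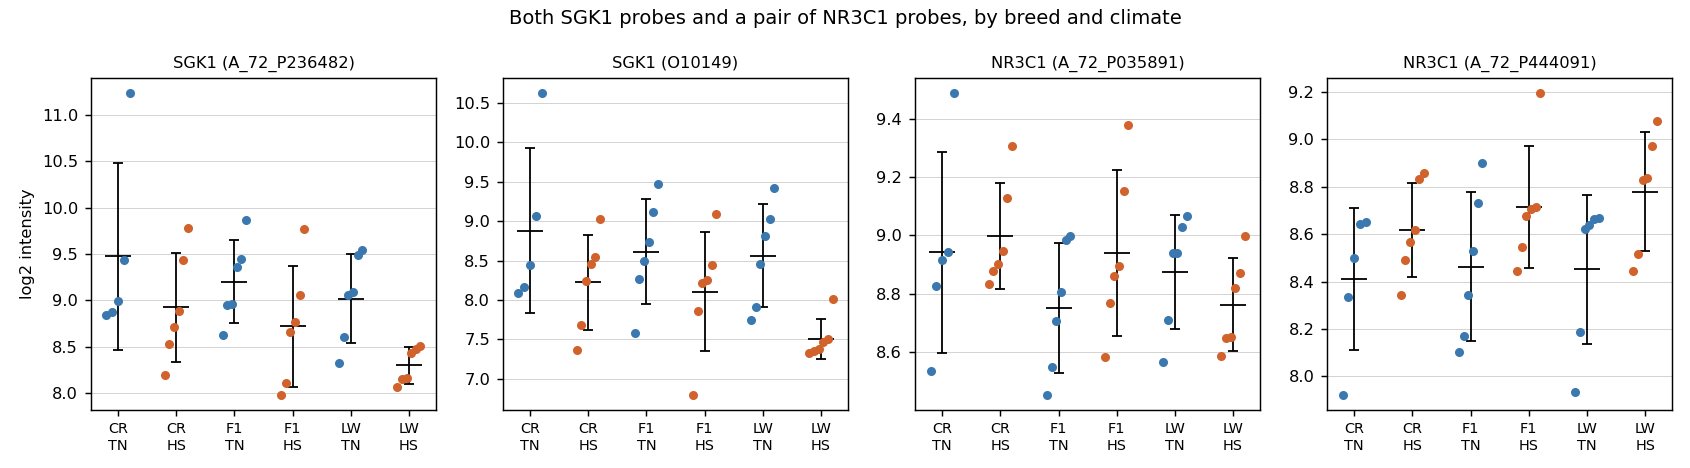
Log2 intensity (vertical axis) of both SGK1 probes and of 2 NR3C1 probes in the 6 groups (horizontal axis), 1 point per pig, with TN in blue, HS in orange, the bar at the group mean and the whisker at 1 SD. SGK1 was lower in HS conditions with both probes, and NR3C1 was higher by 0.26 with A_72_P444091, while the difference with A_72_P035891 was 0.04.

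FKBP5 encodes a co-chaperone of heat shock protein 90 that lowers the affinity of the receptor for hormone, and its induction is widely used as a readout of receptor activity. It did not pass the threshold with any of its 5 probes. In its brightest probe, A_72_P051286, the group means lay between 7.57 ± 0.15 (SD, n = 5) in CR pigs in TN conditions and 7.79 ± 0.32 (SD, n = 6) in LW pigs in HS conditions. The HS minus TN difference was 0.06 ± 0.09 (SE, adjusted p = 0.634), with a 95% interval from -0.13 to 0.25. All 5 probes had differences above 0, up to 0.19, and the lowest adjusted p was 0.0821. Of the 18 HS pigs, 9 had a higher level of the brightest probe than TN pigs of their breed had on average. Within CR, F1 and LW pigs it differed by 0.11, 0.04 and 0.04.

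DDIT4, a stress- and glucocorticoid-induced inhibitor of the growth kinase complex mTORC1, was lower in HS pigs by less than the test could call. Its brightest probe, A_72_P577733, had lowest, median and highest levels of 10.35, 10.80 and 11.01 in LW pigs in TN conditions and of 9.91, 10.34 and 10.52 in LW pigs in HS conditions. In F1 pigs these were 9.79, 10.38 and 11.57 in TN conditions and 9.48, 10.44 and 11.02 in HS conditions. Over all breeds the difference was -0.28 ± 0.13 (SE) with an adjusted p of 0.0931. A DDIT4 probe of the same 60 bases, A_72_P230427, gave -0.31 ± 0.13 (SE) with an adjusted p of 0.0634. From pig to pig the difference between these identical probes had an SD of 0.07. Both probes lie on the same array, so this SD holds the noise between spots, and error shared by a whole array does not enter it. All 4 probes of the gene were lower in HS pigs over all breeds, but within F1 pigs 2 of the 4 were higher. Over all breeds A_72_P489452 and A_72_P538933 differed by -0.16 and -0.04, with adjusted p-values of 0.499 and 0.831. The mean of the 4 probes differed by -0.20 (adjusted p = 0.257). When each pig was left out in turn, the brightest probe passed the threshold in 1 of 35 fits. That was at -0.33 (adjusted p = 0.0450) without replicate 2 of F1 in TN conditions, and the highest adjusted p was 0.1685.

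TSC22D3 encodes GILZ, a leucine zipper protein that restrains inflammatory signalling, and is among the most widely induced targets of the receptor. The brighter of the 2 probes described as this gene, A_72_P007726, had lowest, median and highest levels of 11.17, 11.62 and 12.63 in CR pigs in TN conditions and of 11.12, 11.74 and 12.68 in CR pigs in HS conditions. In F1 pigs they were 10.95, 11.46 and 12.03 in TN conditions and 11.26, 11.56 and 11.82 in HS conditions. In LW pigs they were 10.93, 11.40 and 11.79 in TN conditions and 10.53, 11.06 and 11.32 in HS conditions. The climate difference was -0.07 ± 0.13 (SE, adjusted p = 0.691). CR pigs lay above LW pigs by 0.58 ± 0.16 (SE), which did not pass the threshold (adjusted p = 0.0598), and 10 of the 11 CR pigs were above the LW mean of their climate. The other probe, A_72_P310898, differed by -0.16 ± 0.10 (SE, adjusted p = 0.222) between climates and by 0.11 ± 0.13 (SE) between CR and LW pigs.

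ZBTB16 (PLZF), a zinc finger transcription factor of progenitors and innate-like T cells and a strongly hormone-dependent target of the receptor, changed in F1 pigs. Within that breed 2 of the 41 member probes (4.88%) passed the threshold against 38.7% of all probes. The ZBTB16 probe O11027 had levels of 6.96 to 7.42, with a median of 7.14, in F1 pigs in TN conditions, and of 6.58 to 7.11, with a median of 6.72, in HS conditions. All 6 HS pigs lay below the TN mean, and the ranges overlapped through 1 pig. The level fell by 0.39 ± 0.11 (SE) on the log2 scale (adjusted p = 0.00488). In CR pigs the difference was 0.09 (adjusted p = 0.811) and in LW pigs -0.05 (adjusted p = 0.891). The test of the difference between breeds did not pass the threshold (interaction adjusted p = 0.278 by limma's moderated F test), and 0 of the 41 member probes passed it, with 1 at an unadjusted p under 0.05, beside 0% of all probes. With the erythroid markers as a covariate the F1 difference was -0.41 with an adjusted p of 0.0513. The probe is shown because it is the only one of its gene on the array.
ZBTB16 O11027: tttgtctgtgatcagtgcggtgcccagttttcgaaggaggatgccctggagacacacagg

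KLF9, a zinc finger transcription factor that answers to glucocorticoid and thyroid hormone, was the other gene with a call in F1 pigs. Its probe A_72_P157696 ran from 5.65 to 6.08 in TN conditions and from 6.06 to 6.51 in HS conditions, and rose by 0.33 ± 0.12 (SE, adjusted p = 0.0305). That call was lost when replicate 1 or 3 of F1 in TN conditions or replicate 3 or 5 of F1 in HS conditions was left out (adjusted p = 0.0631, 0.0768, 0.0759 and 0.0901). The other 9 KLF9 probes did not pass the threshold in that breed. The brightest, A_72_P596059, was higher in F1 pigs in HS conditions by 0.19 ± 0.13 (SE, adjusted p = 0.239). Over all breeds the KLF9 probes ranged from -0.20 to 0.14, with 5 of 10 above 0. Their correlations with each other over the pigs ran from -0.343 to 0.936, so that they did not all move together. Some of these probes overlap, with up to 37 bases shared in a row. Within the CR breed and within the LW breed, 0 of the 41 member probes passed the threshold by limma, with 0 and 6 at an unadjusted p under 0.05. Over all probes the share called was 0% in each of these breeds, with 3466 and 3404 probes at an unadjusted p under 0.05.

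ANXA1 encodes annexin A1, a phospholipid-binding protein that is abundant in neutrophils and mediates anti-inflammatory actions of glucocorticoids. It had the largest SD within groups among the brightest probes of the 8 measured members. The brightest probe, A_72_P627933, had an SD within groups of 0.969, and 99.1% of all probes had a smaller one. Its levels ran from 9.20 to 12.32 over the TN pigs and from 9.12 to 12.29 over the HS pigs. All 9 probes were lower in HS pigs, with differences from -0.43 to -0.15, and their lowest adjusted p was 0.266. The brightest differed by -0.43 ± 0.30 (SE), with a 95% interval from -1.04 to 0.18, so a fall of 1 unit could not be told from no change. The 9 probes rose and fell together, with correlations from 0.918 to 0.997. They are not all separate readings, since A_72_P288174 and O10273 share all 60 bases. A_72_P016666 and A_72_P651780 share 57 bases in a row, and A_72_P595704 and A_72_P609134 share 46.

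**Figure D3:**
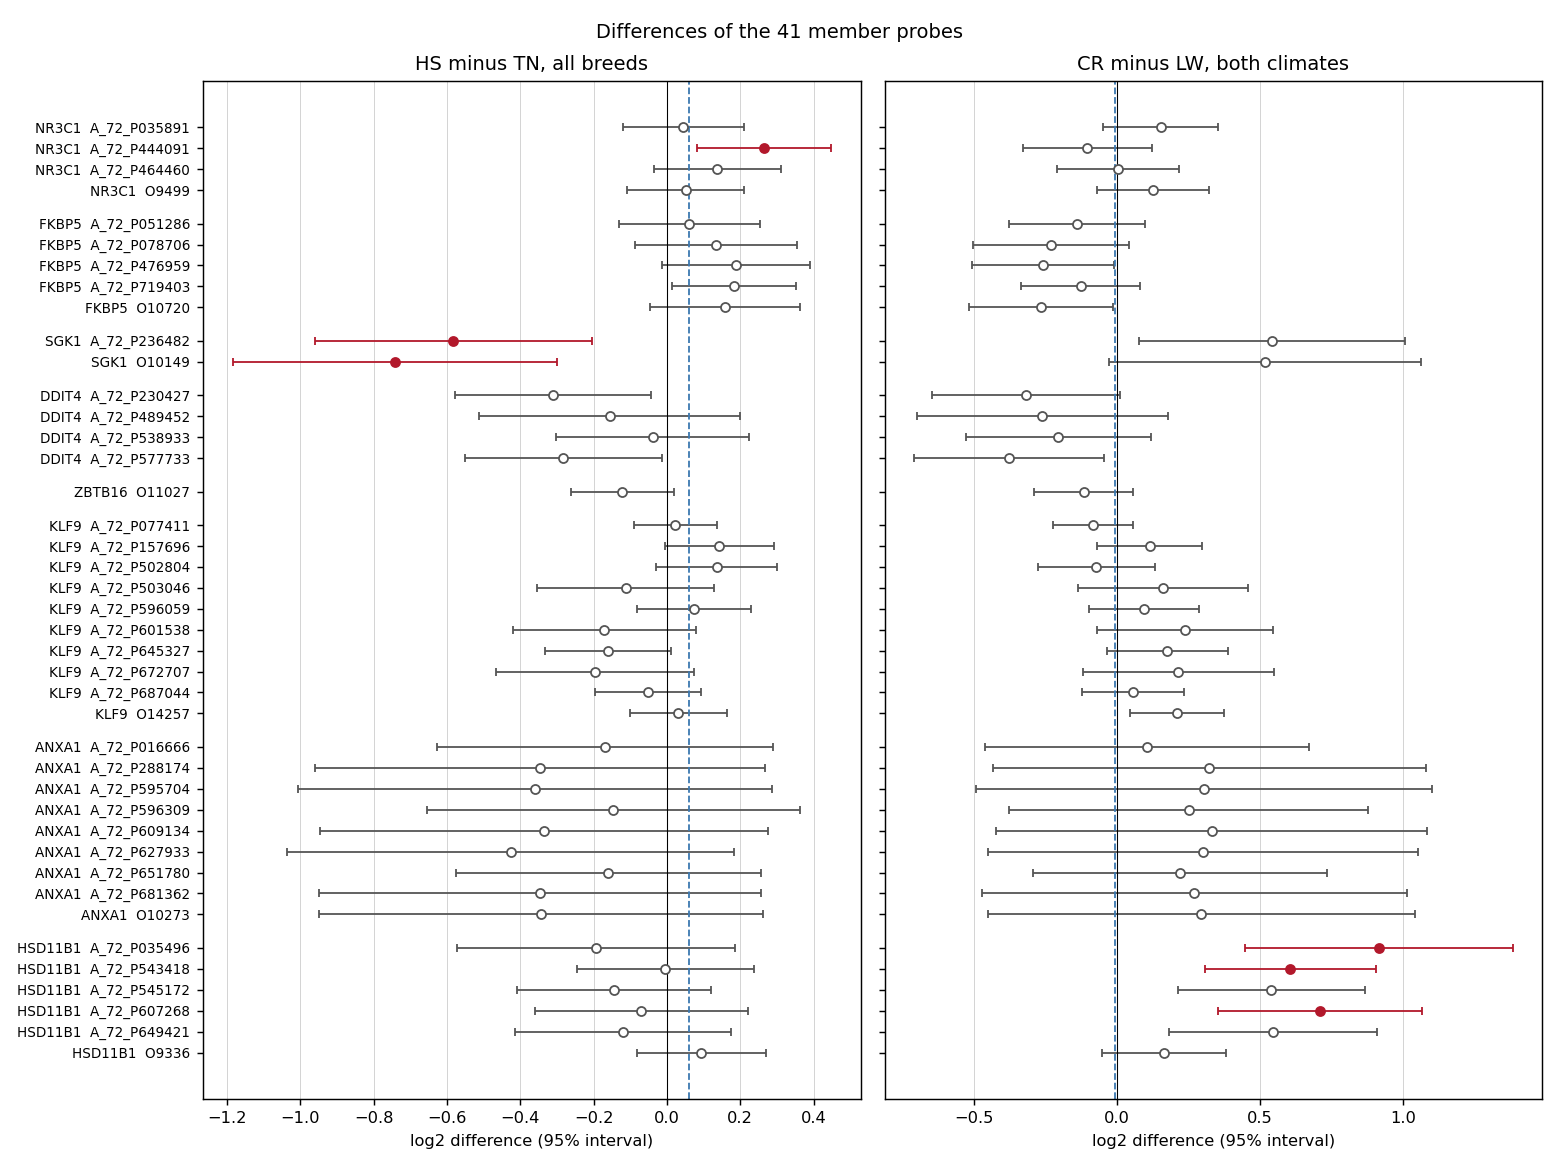
Log2 difference (horizontal axis) of each of the 41 member probes (vertical axis) between HS and TN over all breeds, left, and between CR and LW over both climates, right, with 95% intervals. Filled red points passed an adjusted p of 0.05, and the dashed line is the median of all 39072 probes. The left panel holds 3 red points, of SGK1 and NR3C1, and the right panel 3, of HSD11B1.

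HSD11B1 encodes the enzyme that regenerates active cortisol from cortisone inside cells. It did not differ between climates by an amount the test could call, but it did between breeds. CR pigs were compared with LW pigs over both climates, and 3 of the 41 member probes (7.32%) passed the threshold, all of HSD11B1 and all higher in CR pigs, against 1.08% of all probes in either direction and 0.571% higher in CR. For the brightest probe, A_72_P035496, the lowest, median and highest levels were 6.61, 7.70 and 9.10 in the 11 CR pigs, 6.52, 7.30 and 8.42 in the 12 F1 pigs and 6.39, 6.83 and 7.42 in the 12 LW pigs. The breeds overlapped, with 10 of the 11 CR pigs above the LW mean of their climate. CR pigs were higher by 0.92 ± 0.23 (SE), a fold of 1.89 (adjusted p = 0.0372). F1 pigs had means between those of the parental breeds in both climates, with differences of -0.48 ± 0.23 (SE) from CR and 0.44 ± 0.23 (SE) from LW pigs, and neither difference passed the threshold (adjusted p = 0.941 and 0.9998).

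The probes A_72_P543418 and A_72_P607268 were also higher in CR than in LW pigs, by 0.61 ± 0.15 (SE, adjusted p = 0.0290) and by 0.71 ± 0.18 (SE, adjusted p = 0.0336). The other 3 HSD11B1 probes were higher by 0.16 to 0.55, with adjusted p-values from 0.104 to 0.690. The mean of all 6 probes was higher in CR pigs by 0.58 ± 0.15 (SE) and missed the threshold (adjusted p = 0.0541). Of the probes not called, O9336 was well above background on 13 of 35 arrays and A_72_P649421 on 24. The sequences of 3 probes are shown because they let the agreement be judged. A_72_P545172 and A_72_P607268 share the 17 bases in capitals, at the end of the former and at the start of the latter.
HSD11B1 A_72_P543418: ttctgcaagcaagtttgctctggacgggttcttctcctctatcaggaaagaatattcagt
HSD11B1 A_72_P545172: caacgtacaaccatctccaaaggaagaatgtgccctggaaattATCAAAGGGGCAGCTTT
HSD11B1 A_72_P607268: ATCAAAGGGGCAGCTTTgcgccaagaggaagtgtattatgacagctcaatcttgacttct

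The breed difference of HSD11B1 was positive on each of the 4 slides, at 0.52, 1.68, 0.64 and 0.94 for A_72_P035496. The calls lay close to the threshold. When each pig was left out in turn, the brightest probe had adjusted p-values from 0.0143 to 0.0898 and missed the threshold in 13 of 35 fits, and the difference itself stayed between 0.79 and 1.02. With the erythroid markers as a covariate the difference was 1.11 (adjusted p = 3.71e-05). The mean of the neutrophil markers lay between 10.33 and 12.72 in CR pigs and between 10.31 and 12.04 in LW pigs. SGK1 was 0.54 ± 0.23 (SE) higher in CR than in LW pigs with A_72_P236482 (adjusted p = 0.376). On the slides this difference was 1.36, 0.01, 0.42 and -0.20, and the slide with the highest value holds the CR pig at 11.23. By limma, 0 member probes passed the threshold between F1 and CR pigs, with 6 at an unadjusted p under 0.05, or between F1 and LW pigs, with 0, where 0.184% and 0.0256% of all probes did.

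Whether pigs high in 1 member were high in another was examined over the 35 pigs after the group means had been removed, with 100000 permutations of pigs within groups and adjustment over the 28 pairs of brightest probes. Differences between group means do not enter these values. The threshold was passed by 2 pairs, both positive. NR3C1 and SGK1 had a Pearson's r of 0.705 (permutation p = 0.00022, adjusted p = 0.00308) and a Spearman's rho of 0.618 (permutation p = 0.0005, adjusted p = 0.007). Without the 2 pigs farthest from the NR3C1 median, of which 1 was the CR pig with the highest SGK1 level, r was 0.493 (permutation p = 0.00933). It was 0.752 in TN and 0.639 in HS pigs, 0.688, 0.768 and 0.678 in CR, F1 and LW pigs, and from 0.529 to 0.865 on the 4 slides. Of all probes in the table, 1.60% had a correlation with NR3C1 as high as that of SGK1.

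This relation also depended on which NR3C1 probe was read. Against the SGK1 probes, r was 0.579 and 0.705 for A_72_P035891, 0.436 and 0.583 for O9499, and 0.307 and 0.427 for A_72_P464460. For A_72_P444091, the probe that was higher in HS pigs, r was -0.385 and -0.352. The brightest NR3C1 probe had an r of 0.631 (permutation p = 0.00032, adjusted p = 0.00341 over 64 relations) with the mean of the T cell markers and of -0.523 (permutation p = 0.00422, adjusted p = 0.0300) with that of the erythroid markers, with Spearman's rho of 0.666 (permutation p = 9e-05, adjusted p = 0.00115) and -0.5 (permutation p = 0.00578, adjusted p = 0.0462). Without the 2 pigs farthest from the median of the list, these r were 0.645 and -0.392.

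ANXA1 and HSD11B1 were the other pair, with an r of 0.653 (permutation p = 0.00018, adjusted p = 0.00308) and a rho of 0.623 (permutation p = 0.00041, adjusted p = 0.007). Of all probes, 4.94% had a correlation with ANXA1 as high as that of HSD11B1. Without the 2 pigs farthest from the ANXA1 median r was 0.605 (permutation p = 0.00069). It was 0.555 in TN and 0.814 in HS pigs, and 0.593, 0.037, 0.833 and 0.760 on the 4 slides, so on slide 2 the relation was not seen. Both genes ran with the neutrophil markers, with r of 0.709 for ANXA1 (permutation p = 2e-05, adjusted p = 0.000427) and 0.703 for HSD11B1 (permutation p = 1e-05, the smallest that the permutations can give, adjusted p = 0.00032). Spearman's rho was 0.734 and 0.696 (permutation p = 1e-05 and 7e-05, adjusted p = 0.00032 and 0.00112), and without the 2 pigs farthest from the list's median r was 0.693 and 0.695. With the erythroid markers r was 0.638 for ANXA1 (permutation p = 0.00013, adjusted p = 0.00166, rho 0.646 with adjusted p = 0.00139) and 0.810 for HSD11B1 (permutation p = 1e-05, adjusted p = 0.00032, rho 0.845 with adjusted p = 0.00032), and 0.642 and 0.804 without the 2 farthest pigs. ANXA1 ran against the platelet markers (r = -0.723, permutation p = 5e-05, adjusted p = 0.0008, rho -0.734 with adjusted p = 0.00107), with -0.728 without the 2 farthest pigs. With the neutrophil markers as a covariate the r of the pair was 0.308 (permutation, adjusted p = 0.391), and with the erythroid markers it was 0.303 (permutation, adjusted p = 0.382).

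**Figure D4:**
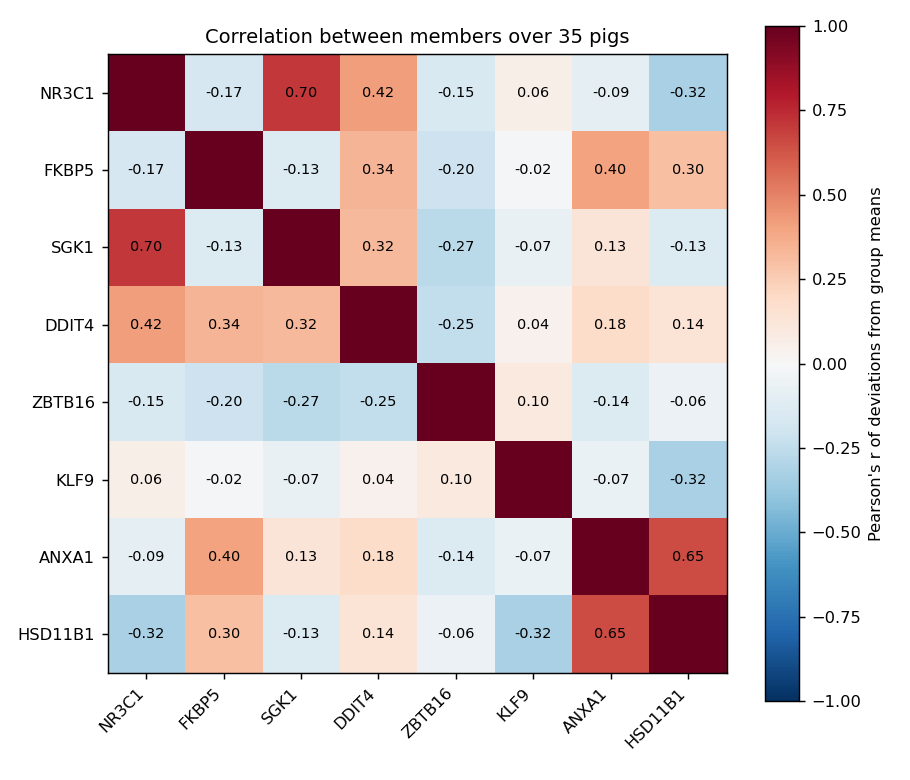
Pearson's r between the brightest probes of the 8 measured members over 35 pigs, as deviations from the group means, with r printed in each cell and coded from blue (-1) to red (1). The cells of NR3C1 with SGK1 (0.705) and of ANXA1 with HSD11B1 (0.653) are the pairs past the threshold of the 28, whose median r was -0.04.

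FKBP5, for its part, had no pair past the threshold. Its r with NR3C1 was -0.167 (permutation p = 0.340, adjusted p = 0.692), and that with ANXA1 was 0.400 (permutation p = 0.0434, adjusted p = 0.304). It ran with the mean of the neutrophil markers (r = 0.543, permutation p = 0.00125, adjusted p = 0.0114), with a rho of 0.564 (permutation p = 0.00109, adjusted p = 0.00997) and an r of 0.5 without the 2 pigs farthest from the list's median. KLF9 ran with the mean of the B cell markers (r = 0.532, permutation p = 0.00249, adjusted p = 0.0199), but its rho of 0.441 did not pass the threshold after adjustment (permutation p = 0.0180, adjusted p = 0.0959), and without the 2 farthest pigs r was 0.490. In all, 9 of the 64 relations of members with marker lists passed the threshold. Of the 16 relations of the TSC22D3 probes with members, 6 passed the threshold. A_72_P007726 had an r of -0.595 with ANXA1 (permutation p = 0.00034, adjusted p = 0.00272 over 16 relations), with a rho of -0.652 (permutation p = 0.00016, adjusted p = 0.00256), and of 0.456 with NR3C1 (permutation p = 0.0167, adjusted p = 0.0446), with a rho of 0.424 that missed the threshold (permutation p = 0.0191, adjusted p = 0.0510). Without the 2 pigs farthest from the median of the TSC22D3 probe these r were -0.752 and 0.381, and on the 4 slides they ran from -0.770 to -0.303 and from 0.046 to 0.701. With HSD11B1 its r was -0.526 (permutation p = 0.00864, adjusted p = 0.0276), its rho -0.488 (permutation p = 0.00808, adjusted p = 0.0259) and its r without the 2 farthest pigs -0.569, and on slide 2 it was 0.017. The other probe, A_72_P310898, also ran against HSD11B1 (r = -0.637, permutation p = 0.00028, adjusted p = 0.00272) and ANXA1 (r = -0.559, permutation p = 0.00236, adjusted p = 0.0126), with rho of -0.603 and -0.543 (permutation, adjusted p = 0.00744 and 0.0143) and r of -0.587 and -0.490 without the 2 farthest pigs. With ZBTB16 it had an r of 0.51 (permutation p = 0.00401, adjusted p = 0.0160) and a rho of 0.482 (permutation p = 0.00603, adjusted p = 0.0241), and r was 0.407 without the 2 farthest pigs.

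The genes most like NR3C1 and FKBP5 over the pigs were sought among 9714 other named genes, each by its brightest probe, as a description with no test. For NR3C1 these were CDC42SE1 (r = 0.884), CRKL (r = 0.830), an adaptor protein of growth factor signalling, and PITPNB (r = 0.828), a phosphatidylinositol transfer protein. For FKBP5 they were DUT (r = 0.715), CCNB1 (r = 0.704) and PCNA (r = 0.699), which act in nucleotide supply, mitotic entry and DNA replication.

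The other genes of the pathway are given by lists, with 39.5% of all 9715 named genes past the threshold between climates as background, 22.8% higher and 16.7% lower in HS pigs. Of the receptor complex and coregulators, 7 of 15 measured genes were higher and 1 lower in HS pigs. SMARCA4, the ATPase of a chromatin remodelling complex, rose by 0.38 ± 0.09 (SE, adjusted p = 0.00239), and MED1, a Mediator subunit, by 0.28 ± 0.06 (SE, adjusted p = 0.00197). The coactivator NCOA1 rose by 0.29 ± 0.07 (SE, adjusted p = 0.00348) and the chaperone HSP90AB1 by 0.28 ± 0.08 (SE, adjusted p = 0.00645). The median of the list was 0.21, against 0.06 over all genes. Within CR, F1 and LW pigs it was 0.14, 0.335 and 0.16. The differences of the lists are over all breeds. Within CR and within LW pigs 0% of all probes passed the threshold, and within F1 pigs 38.7%. The interaction of breed and climate was called for 0% of all probes.

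Of the genes of cortisol supply, 3 were measured. HSD11B2, which inactivates cortisol, fell by 0.29 ± 0.08 (SE, adjusted p = 0.00678). In CR, F1 and LW pigs its difference was -0.18, -0.55 and -0.14. NR3C2, the mineralocorticoid receptor, which also binds cortisol, rose by 0.22 ± 0.08 (SE, adjusted p = 0.0304), with 0.15, 0.22 and 0.27 in these breeds. SERPINA6, the corticosteroid-binding globulin, differed by 0.02 ± 0.09 (SE, adjusted p = 0.892).

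Of 20 other glucocorticoid-induced genes, 1 was higher and 3 were lower in HS pigs, and the median of the list was 0.01. VSIG4, a complement receptor of macrophages, fell by 0.62 ± 0.14 (SE, adjusted p = 0.00187), PDK4, a kinase that restrains glucose oxidation, by 0.42 ± 0.11 (SE, adjusted p = 0.00623), and CXCR4, a chemokine receptor of leukocytes, by 0.50 ± 0.14 (SE, adjusted p = 0.00711). In CR, F1 and LW pigs the differences were -0.47, -1.11 and -0.26 for VSIG4 and -0.37, -0.69 and -0.19 for PDK4. For CXCR4 they were -0.35, -0.34 and -0.79. NFKBIA, the inhibitor of NF-kappa B, rose by 0.27 ± 0.08 (SE, adjusted p = 0.0122), with 0.13, 0.42 and 0.25 in these breeds. Of 11 inflammatory genes that glucocorticoids repress, IFNG alone passed the threshold and fell by 0.22 ± 0.07 (SE, adjusted p = 0.0189). That list had a median of -0.20, with 1 of 11 genes above 0.

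Markers of blood cells were set beside these counts. Among the erythroid genes, ALAS2, which starts heme synthesis in red cell precursors, fell by 0.74 ± 0.19 (SE, adjusted p = 0.00403). In CR, F1 and LW pigs its difference was -0.52, -1.40 and -0.28. Of 15 neutrophil markers, 2 were lower in HS pigs, ARG1 (-1.52) and ELANE (-0.97), and 2 of 4 eosinophil and basophil markers were lower, GATA2 (-0.68) and CCR3 (-0.46). Each of these genes was lower in every breed and fell most in F1 pigs. Higher were 4 of 8 B cell markers, 3 of 13 T cell markers and 2 of 9 monocyte markers, in which MRC1 was lower. Over all named genes 22.8% were higher and 16.7% lower in HS pigs, and the T cell (23.1%) and neutrophil (13.3%) shares lay near these. Of the cytotoxic cell markers 3 of 10 were lower, and of the platelet markers 0 of 7 passed the threshold by limma, with adjusted p-values from 0.119 to 0.761. With the mean of the erythroid markers as a covariate, the calls over all probes were almost all lost, as given in the last section. The lists were not counted again in that fit, and the part of these marker differences in the list counts was not tested.

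**Figure D5:**
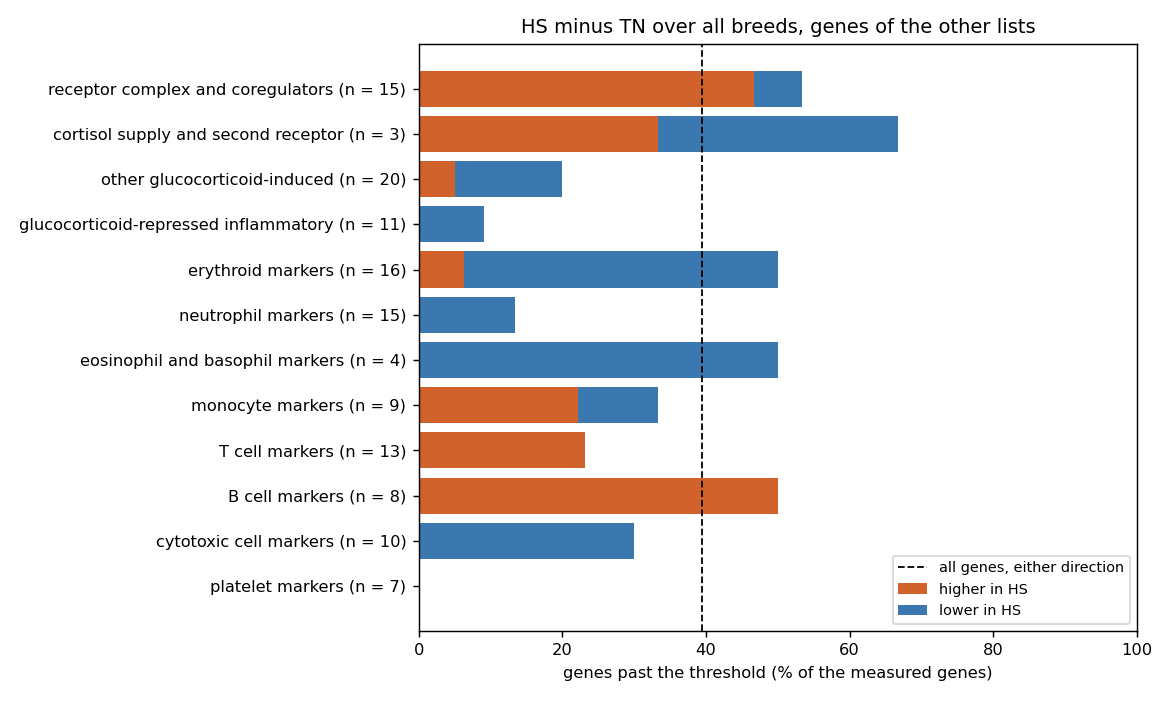
Share of the measured genes of each list (horizontal axis, %) that passed an adjusted p of 0.05 between HS and TN over all breeds, with the share higher in HS in orange and the share lower in blue, for the 12 lists (vertical axis, n = genes measured). The dashed line is the 39.5% of all named genes, and 5 lists lay above it, those of the receptor complex and coregulators (8 of 15), cortisol supply and second receptor (2 of 3), erythroid (8 of 16), B cell (4 of 8) and eosinophil and basophil markers (2 of 4).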

How the data were processed

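Whole blood RNA of 35 pigs was hybridized to a porcine Agilent array, 1 colour and 1 array per pig. Per the file headers, the scanner files, read with Feature Extraction 10.10.1.1 by the submitters' processing notes, hold raw and processed intensity of 60-base probes. The authors deposited log2 values after quantile normalization and a filter on expressed probes whose rule is not given in the sources used here. Recomputed values had a correlation of 0.99997 with them.

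The deposited log2 values of 39072 probes were fitted with limma 3.58.1 in R 4.3.3 (lmFit and eBayes), with breed and climate for HS minus TN and for breeds, and with 6 group means for effects within breeds and their interaction. Pen, slaughter day and parents, which the study's methods use as random effects, are not in the labels. Groups came from the labels, and pigs were numbered in record order. The brightest probe in the mean of 35 arrays stood for a gene. Correlations used Python 3.11.15 and numpy 2.4.6. The limma fit was tested on simulated data. Alternatives were scanner intensity with other background correction, scaling or filters, the slide as a block, array weights, marker means as covariates, and leaving out pigs or breeds. For arrays, the number of pigs limits the precision.

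The members, the gene lists and the tests were chosen with earlier results of these data known. All members were named. Of each list, up to 4 genes per direction were named, those with the smallest p past the threshold and the same sign in 3 breeds. For NR3C1 and FKBP5 the 3 most correlated genes were named. Some genes that these rules name are not reported here.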

Additional observations from a re-analysis of the deposited data

Results flagged for a closer look

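Single pigs stood far from the rest of their group in 4 of 90 groups of pigs and probes examined (15 probes in 6 groups). Chance alone sets a pig apart in about 1 group in 20. SGK1 with A_72_P236482 was 11.23 in replicate 1 of CR in TN conditions, where the other pigs ran from 8.84 to 9.44. SGK1 with O10149 was 8.01 in replicate 3 of LW in HS conditions, against 7.33 to 7.51. NR3C1 with A_72_P444091 was 9.19 in replicate 4 of F1 in HS conditions, against 8.44 to 8.72. The TSC22D3 probe A_72_P310898 was 6.17 in replicate 5 of LW in HS conditions, against 6.80 to 7.11.

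Outside the authors' table, 3 member probes gave signal well above background, DDIT4 O13960 on 5 of 35 arrays, HSD11B1 A_72_P006061 on 6 and KLF9 A_72_P070711 on 9. They entered no comparison.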

How the results depend on the processing

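No paired analysis was possible because each pig gave 1 array and the labels do not name its litter. The number of member probes past the threshold between climates was 3 in the deposited values, 7 with array weights, and 0 with the erythroid covariate, without F1 pigs and without LW pigs. Over all probes the count of 13601 became 1 with the erythroid covariate and 0 without F1 pigs. The all-probe counts of the other settings are not given here, so the member counts there are not a result about the members alone. When each pig was left out, the count ran from 3 to 5 for members, with 5 without replicate 2 of F1 in TN conditions. Over all probes it then ran from 11594 to 16429, within F1 pigs from 11504 to 16478, and between CR and LW pigs from 299 to 474. Within F1 pigs the count of 2 became 1 with 75th percentile scaling and 1 with the erythroid covariate, and ran from 1 to 3 without single pigs, where KLF9 A_72_P157696 lost its call without replicate 1 or 3 of F1 in TN or replicate 3 or 5 of F1 in HS conditions (adjusted p up to 0.0901). Within LW pigs 0 became 1 with array weights. Between CR and LW pigs the count of 3 became 1 without a filter on dim probes and 5 with the erythroid covariate, and ran from 0 to 3 without single pigs. It was 0 without replicate 3 or 4 of CR in TN, 2 or 4 of CR in HS or 1 of LW in HS conditions, and 1 without replicate 1, 2, 4 or 5 of LW in TN or 2, 3 or 4 of LW in HS conditions. The brightest HSD11B1 probe alone lost its call without replicate 1 of CR in HS conditions (adjusted p = 0.0572). With each pig left out, 0 member probes were called within CR and within LW pigs, for the interaction and between F1 and either parent. Over all probes the calls ran from 57 to 95 between F1 and CR pigs and from 0 to 19 between F1 and LW pigs. They stayed at 0 within CR, within LW and for the interaction. Of the correlated pairs, 2 became 1 with the erythroid or, chosen after the data had been seen, the neutrophil covariate, with NR3C1 and SGK1 kept, and leaving out pigs gave 2 to 3.

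Signs turned only for differences that had not passed the threshold. With the erythroid covariate HSD11B1, NR3C1 and ANXA1 (brightest probes, HS minus TN) were 0.30, -0.10 and 0.21, and with the neutrophil covariate HSD11B1 and NR3C1 were 0.0263 and -0.00745. Without F1 pigs NR3C1 was -0.0312 and ZBTB16 0.0192. Without LW pigs TSC22D3 A_72_P007726 was 0.0735. Over all breeds the mean of the KLF9 probes was -0.0287. The causes were not tested. Over all results and settings other than left-out pigs, 324 values kept direction and side of the threshold or stayed near the value reported, 26 moved, 20 lost a call and 9 turned sign.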
